A study of Mus musculus with 12 samples.

Results

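The p53 gene Trp53 and 9 genes known as targets of the p53 protein were followed through the transcriptome of IEC4.1 cells after knockdown of the lncRNA Nostrill and after IFN-γ. The set held Trp53, Mdm2, Cdkn1a, Ccng1, Bax, Bbc3, Perp, Phlda3, Zmat3 and Ei24, which are 10 of the 15002 genes in the tables, and was matched by gene symbol. The set was chosen by the level of Ei24, which had been seen to be higher with siR_Nostrill in these same libraries, and the question is whether other p53 targets followed it. The values of Ei24 in siR_Nostrill against siR_Ctrl, with or without IFN-γ, and in the interaction are therefore given as a description with no test, and Ei24 is left out of the counts of those comparisons.

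The p53 protein is a transcription factor that is held at a low level by Mdm2, an E3 ubiquitin ligase that is itself a p53 target, and that accumulates when DNA is damaged or ribosome assembly fails. It binds DNA as a tetramer, at pairs of similar decamers called half-sites. It switches on genes that halt the cell cycle (Cdkn1a), that feed back on p53 (Ccng1) or that open the mitochondrial outer membrane in apoptosis (Bax, Bbc3). Other targets act in adhesion, survival signalling, RNA stability and autophagy (Perp, Phlda3, Zmat3, Ei24). Much of p53 activity is set by the stability of the protein, which RNA levels do not show. In the intestinal epithelium p53 is known for its part in the response of crypt cells to radiation.

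The cells were in 4 groups of 3 libraries each, all from the wild-type line IEC4.1, which was derived from newborn mouse intestine. Cells labelled siR_Ctrl had received a scrambled siRNA, and cells labelled siR_Nostrill a pool of 3 siRNAs against Nostrill at 40 nM each, both for 24 h. In siR_Ctrl + IFN-γ and siR_Nostrill + IFN-γ cells, IFN-γ followed at 1 ng/ml for 4 h according to the methods of the study, whereas the labels give 24 h for every library. The control siRNA was used at the total dose of the pool, the pool does not separate its siRNAs, and the line is a single source of cells. The level of Nostrill was not analysed here, since the tables list genes as mRNA only, so the knockdown was not checked.

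Between 17824306 and 19093204 reads were counted on genes in a library. The cell type on the labels is intestinal epithelial, but of the 5 epithelial markers in the tables Krt8, Krt18, Vil1 and Cdx2 stayed at or below 0.28 FPKM in every library, and Krt19 was between 0.91 and 2.76 FPKM. The fibroblast markers Col1a1 and Col1a2 were at 175.72 to 315.14 and 128.42 to 202.5 FPKM, with Pdgfra at 7.84 to 23.76, Dcn at 13.18 to 22.69 and Lum at 0.06 to 0.27 FPKM. The summed fibroblast markers were at 377.79 to 564.33 FPKM in siR_Ctrl, 327.58 to 519.19 in siR_Ctrl + IFN-γ, 347.87 to 496.4 in siR_Nostrill and 377.53 to 437.02 in siR_Nostrill + IFN-γ cells, and these ranges overlap. The endothelial markers Pecam1 and Cdh5 summed to at most 0.18 FPKM in any library. In such bulk RNA, a change in the share of a kind of cell and a change of RNA per cell cannot be told apart.

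The libraries also differed in how reads were spread over short and long transcripts. The ratio of TPM to FPKM, which is lower where more reads lie on short transcripts, ran from 1.2581 to 1.7515 between libraries, and within siR_Ctrl alone it was 1.7515, 1.3603 and 1.4436. Changes below are from the counts as deposited, and the members' values after a per-library correction for gene length, called here with the length trend removed, are given beside them. The tables of the siR_Nostrill group had another column layout than those of the other 3 groups, and their TPM summed to slightly more (1000000.03 to 1000000.13 against 999931.23 to 999980.16), so a difference in processing and the group itself cannot be told apart there.

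The knockdown reagents and the p53 motifs found near members' starts are shown first, as the reagents behind the comparisons and the motif that p53 binds. The guide strands were taken as the reverse complements of the sense strands given by the study, 5′ to 3′, with the seed (bases 2 to 8) in capitals.
Nostrill siRNA 1: aUUAAUGCuucuucccagg
Nostrill siRNA 2: aUUUGUGUguuccuggugg
Nostrill siRNA 3: aUUAGAACgacuuauaggc
The seeds of Nostrill siRNA 1 and Nostrill siRNA 2 had no match in the longest annotated 3′UTR (GENCODE vM21) of any of the 10 genes, while 7.67% and 15.2% of 21659 genes with such a 3′UTR held one. The seed of Nostrill siRNA 3 had 1 match in Zmat3 and 1 in Perp, against 8.73% of all genes. No 3′UTR match of these seeds was therefore found for Ei24, Ccng1, Cdkn1a or Phlda3, the members described in most detail below.

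RefSeq promoter windows (GRCm38.p6, 250 bases before to 50 after a transcript start) were at hand for 8 of the 10 genes, all but Zmat3 and Perp. They were searched for the p53 half-site in its consensus form, purines, then C, A or T, A or T, and G, then pyrimidines, which reads the same on both strands. At least 1 half-site was found in 6 of the 11 windows of these genes, against 8.36% of 32851 windows in all, and so in 6 of the 8 genes, against 9.55% of 27025 genes with a window. The following runs are 30 bases on the strand of the gene, 5′ to 3′, with the half-site in capitals.
Ei24: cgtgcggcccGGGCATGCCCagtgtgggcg
Cdkn1a, upstream half-site: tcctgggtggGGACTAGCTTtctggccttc
Cdkn1a, downstream half-site: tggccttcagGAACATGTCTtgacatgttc
Ccng1: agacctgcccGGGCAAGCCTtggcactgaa
Trp53: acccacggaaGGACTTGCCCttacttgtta
Mdm2: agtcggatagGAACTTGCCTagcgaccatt
Bax: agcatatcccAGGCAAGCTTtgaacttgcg
These runs lie at chr9:36797325-36797354 on the minus strand (Ei24), chr17:29090896-29090925 and chr17:29090918-29090947 on the plus strand (Cdkn1a), chr11:40755452-40755481 on the minus strand (Ccng1), chr11:69580274-69580303 on the plus strand (Trp53), chr10:117710925-117710954 on the minus strand (Mdm2) and chr7:45467080-45467109 on the minus strand (Bax). Counted from the annotated start, the half-site of Ei24 covered positions -10 to -1, and those of Ccng1 and Mdm2 began at -185 and -186. Cdkn1a held the only pair with both half-sites in that exact form, with 12 bases between them. Such a pair, spaced by at most 13 bases, was found in 0.0731% of all windows. Decamers with a mismatch to the consensus were not searched, so pairs that include such a decamer were not counted. In the runs above, the bases that adjoin the half-site of Ccng1 and the downstream half-site of Cdkn1a come close to the consensus without matching it. Both half-sites of Cdkn1a lie in its upstream window, and its other window (chr17:29093519-29093818) held no match. The windows of Bbc3 and Phlda3 held none either. A match is a run of letters, and these files do not measure binding of p53.

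Levels of the members, which FPKM makes comparable between genes by scaling to length, fell into separate ranges. Bax (mean 158.8 FPKM over 12 libraries), Trp53 (128.3), Cdkn1a (87.8) and Phlda3 (80.4) were the most abundant, and each overlapped its neighbour in that order. Ei24 (27.9), Mdm2 (17.9) and Ccng1 (15.7) came next and also overlapped one another in turn, but the highest Ei24 library (39.2) was below the lowest Phlda3 library (60.36). Bbc3 (4.13) and Zmat3 (3.43) were low and overlapped each other. Perp, a tetraspan protein of desmosomes in stratified epithelia, had 1 read in 1 of 12 libraries, siR_Nostrill replicate 3, and a count of 0 allows up to 3 reads in each of the others. It was not tested, so 9 of the 10 genes passed the filter on low counts.

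**Figure D1:**
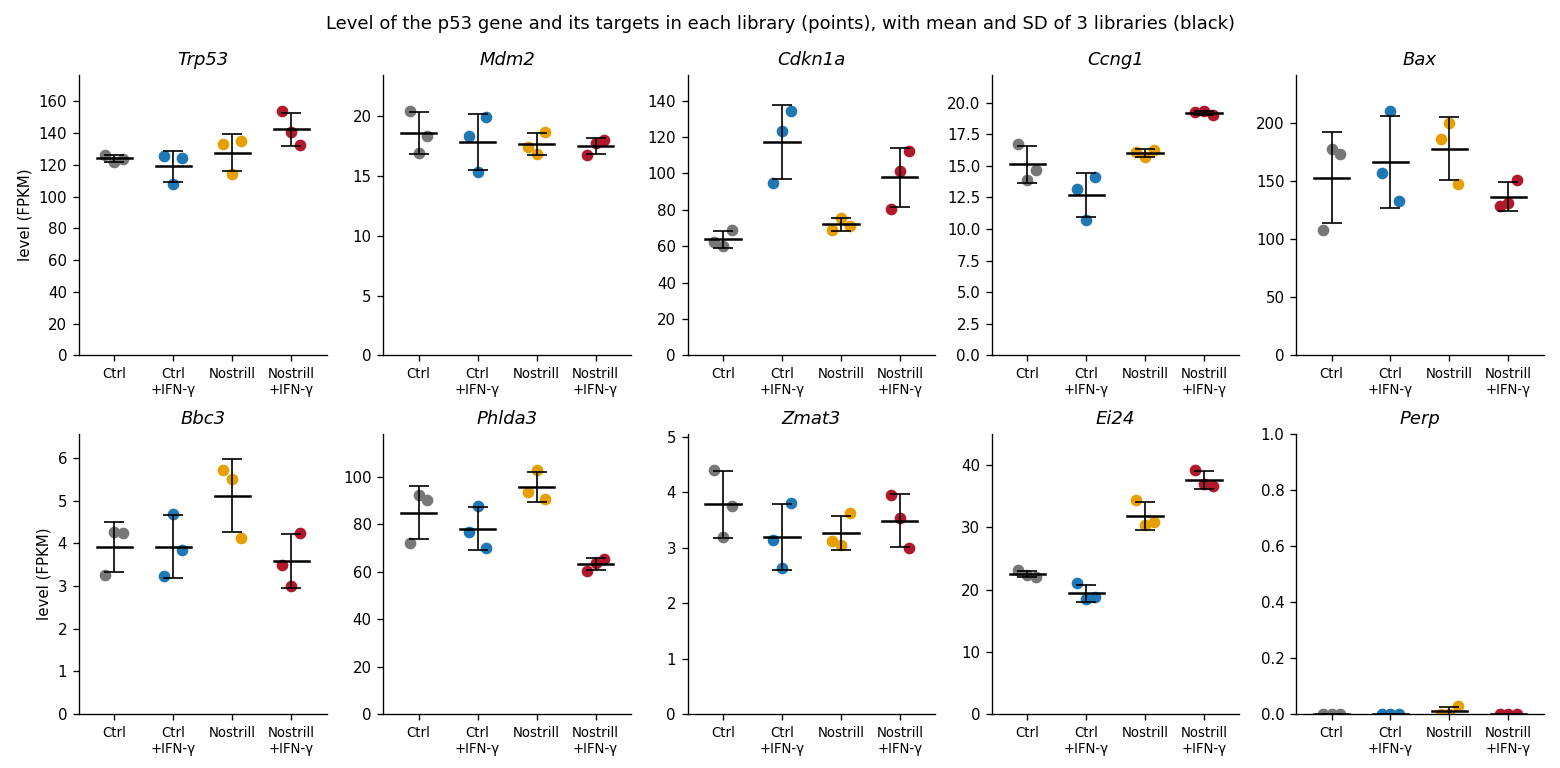
Level in FPKM (linear axes from 0) of each gene in each of the 12 libraries, as points by group, with the mean and SD of 3 libraries in black. Ei24 libraries with siR_Nostrill (30.33 to 39.2) lie above those with siR_Ctrl (18.48 to 23.15), Ccng1 is highest in siR_Nostrill + IFN-γ, Cdkn1a in siR_Ctrl + IFN-γ, and Phlda3 is lowest in siR_Nostrill + IFN-γ.

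Ei24 (gene ID 13663, chr9:36779153-36797334, minus strand, protein coding, 2 transcripts) encodes a membrane protein of the endoplasmic reticulum that was found as a gene induced by etoposide through p53 and that is needed for autophagy. Its level was 23.15, 22.31 and 22.12 FPKM in siR_Ctrl and 34.41, 30.33 and 30.88 FPKM in siR_Nostrill cells. With IFN-γ it was 21.03, 18.48 and 18.90 FPKM in siR_Ctrl and 39.20, 36.95 and 36.71 FPKM in siR_Nostrill cells. In FPKM the 6 libraries with siR_Nostrill were thus all above the 6 with siR_Ctrl. On that scale the levels ran in the order siR_Ctrl + IFN-γ, siR_Ctrl, siR_Nostrill, siR_Nostrill + IFN-γ with no overlap between neighbours. In TPM, siR_Ctrl replicate 1 (40.55) was above siR_Nostrill replicate 2 (38.66). As a description of what chose the gene, the log2 fold change with siR_Nostrill was 0.53 (standard error 0.09) without and 0.88 (0.09) with IFN-γ, and 0.44 and 0.90 with the length trend removed. GENCODE vM21 places an antisense gene, Gm26787, over the 3′ part of Ei24, and the sources used here do not say whether counting used the strand, so reads of the pair may not be separated.

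The rule of choice did not name the effect of IFN-γ on Ei24, but this effect is read from the same libraries that chose the gene. Its values and p are therefore a description and not a test free of the choice. Unless said otherwise, an adjusted p is from an edgeR quasi-likelihood fit, corrected by Benjamini-Hochberg over the genes tested in that fit. With all 12 libraries these were 11900 genes, or 11788 with the length trend removed. In siR_Ctrl cells the effect of IFN-γ on Ei24 came to -0.14 on the log2 scale (standard error 0.09, adjusted p = 0.527), and in siR_Nostrill cells to 0.21 (0.09, adjusted p = 0.183). Neither passed the threshold of 0.05 although neither pair of groups overlapped. With the length trend removed the second did (0.29, standard error 0.07, adjusted p = 0.0112) and the first did not (-0.17, adjusted p = 0.174), but the second was no longer called without siR_Nostrill replicate 2 or siR_Nostrill + IFN-γ replicate 1, where the adjusted p reached 0.0587.

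In siR_Nostrill against siR_Ctrl without IFN-γ, none of the 8 other members tested passed the threshold, where 0.218% of all 11900 genes tested were called, 0.0756% higher and 0.143% lower. By unadjusted p below 0.05 the count was also 0 of 8, against 13.8% of all genes, and DESeq2 called none of the members. Of the 8, 6 had a fold change above 0, with a median of 0.16 against 0.00 over all genes in this comparison, and the groups did not overlap for 1, Cdkn1a, against 8.7% of all genes that were higher and 9.27% that were lower without overlap, and for Cdkn1a the gap was between 69.14 and 69.16 FPKM. The median was 0.05 with the length trend removed, again with none called, where 3.52% of genes were (1.66% higher, 1.86% lower). The closest to the threshold in that fit was Ccng1 (log2 fold change 0.18, standard error 0.06, adjusted p = 0.125).

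In siR_Nostrill against siR_Ctrl with IFN-γ, 1 of the 8 other members tested passed, where 0.429% of all genes were called, 0.185% higher and 0.244% lower, and by unadjusted p 3 of 8 were below 0.05 against 14.5% of all genes. That gene was Ccng1. Of the other 7, 2 had a fold change above 0 and 5 below, and over all 8 the median was -0.15 against 0.00 over all genes. On log2 CPM before the correction for length, the groups did not overlap for 3, with Ccng1 and Trp53 higher (11.1% of all genes) and Phlda3 lower (10.4%). With the length trend removed 2 of 8 passed, Ccng1 higher and Phlda3 lower, against 13.1% of all genes (6.25% higher, 6.83% lower). The comparisons with and without IFN-γ share no library, and each gave at most 1 of the 8 a higher call.

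**Figure D2:**
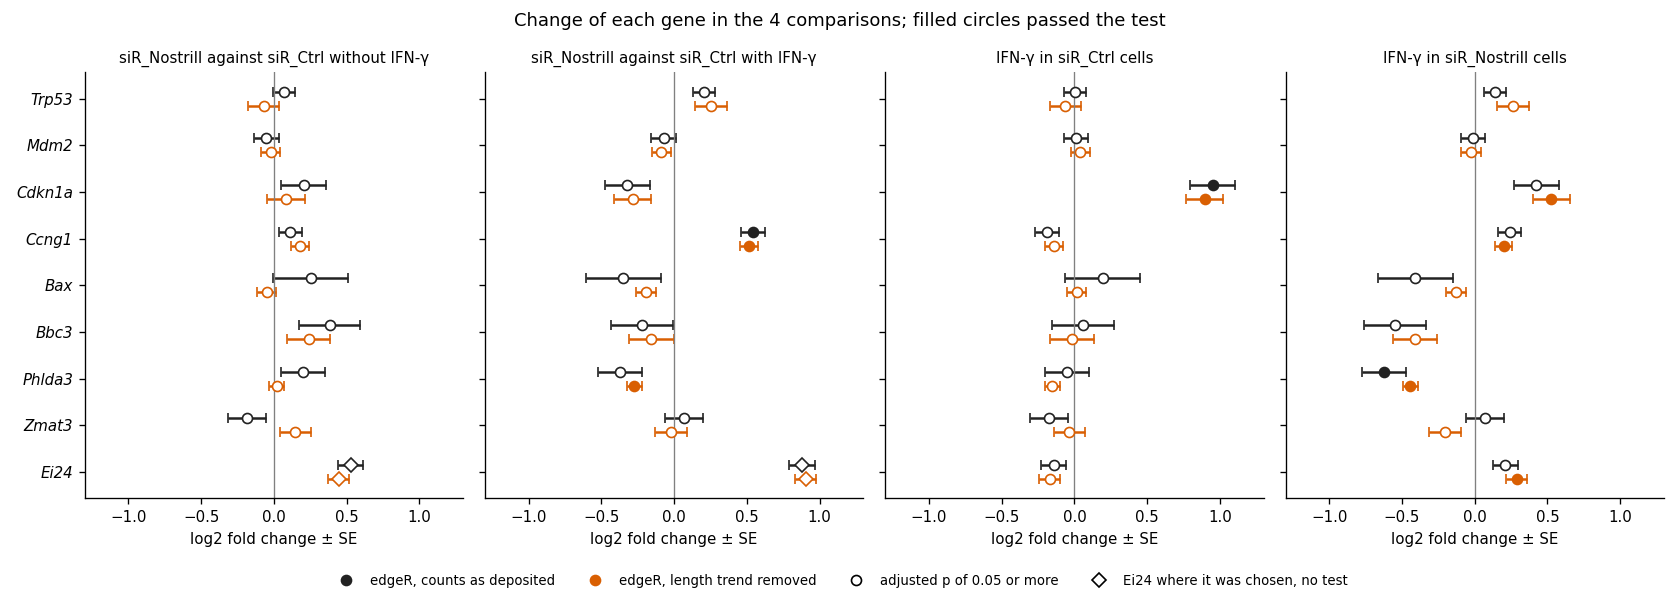
Log2 fold change with its standard error (x axis) of the 9 genes tested (rows) in 4 comparisons (panels), from the counts as deposited (black) and with the length trend removed (orange). Filled circles passed the test, open circles did not, and diamonds mark Ei24 where it was the reason for the choice. Ccng1 with IFN-γ (0.54), Cdkn1a after IFN-γ in siR_Ctrl cells (0.95) and Phlda3 after IFN-γ in siR_Nostrill cells (-0.62) are the filled black points.

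Ccng1 (gene ID 12450, chr11:40748552-40755309, minus strand) encodes cyclin G1, which recruits a PP2A phosphatase subunit to Mdm2 and so feeds back on p53. Its level was 16.73, 13.88 and 14.70 FPKM in siR_Ctrl, 13.16, 10.74 and 14.13 in siR_Ctrl + IFN-γ, 16.11, 15.66 and 16.24 in siR_Nostrill and 19.24, 19.30 and 19.03 in siR_Nostrill + IFN-γ cells. In FPKM the libraries of siR_Nostrill + IFN-γ were above all 9 others and lay close together. In TPM, siR_Ctrl replicate 1 (29.29) was above siR_Nostrill + IFN-γ replicates 2 and 3 (29.23 and 27.25). With IFN-γ present, the log2 fold change of siR_Nostrill against siR_Ctrl was 0.54 (standard error 0.08, 1.46-fold, adjusted p = 0.0235), and with the length trend removed 0.52 (0.06, adjusted p = 0.000455). The call was lost when only the groups compared were fitted (0.54, adjusted p = 0.204) and in 7 of the 12 fits that left out a library, those without siR_Ctrl replicate 3, siR_Ctrl + IFN-γ replicate 1 or 2, siR_Nostrill replicate 2, or siR_Nostrill + IFN-γ replicate 1, 2 or 3 (adjusted p up to 0.126). It was kept in all 12 when the length trend was also removed (0.49 to 0.54, adjusted p from 0.000464 to 0.00435).

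Without IFN-γ, the log2 fold change of Ccng1 with siR_Nostrill was 0.11 (standard error 0.08, adjusted p = 0.449). IFN-γ itself gave -0.19 (0.08, adjusted p = 0.302), or -0.14 corrected for length, in siR_Ctrl cells and 0.24 (0.08, adjusted p = 0.11) in siR_Nostrill cells. The latter passed with the length trend removed (0.20, adjusted p = 0.0346), except without siR_Nostrill replicate 2 or 3 or any siR_Nostrill + IFN-γ library (adjusted p up to 0.128). The difference between those effects, the interaction, was 0.43 (0.11, adjusted p = 0.43), or 0.34 corrected for length (adjusted p = 0.135), and did not pass.

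Trp53 (gene ID 22059, chr11:69580348-69591873, plus strand, 6 transcripts) was at 126.53, 121.88 and 123.90 FPKM in siR_Ctrl, 125.40, 107.75 and 124.17 in siR_Ctrl + IFN-γ, 133.52, 114.27 and 135.32 in siR_Nostrill and 153.76, 140.58 and 132.81 in siR_Nostrill + IFN-γ cells. In FPKM its libraries with both treatments were above those with IFN-γ alone. In TPM, siR_Nostrill + IFN-γ replicate 3 (190.18) was below siR_Ctrl + IFN-γ replicate 3 (195.55). The same held in log2 CPM with the length trend removed (7.668 and 7.691). The log2 fold change of 0.21 (standard error 0.08, 95% confidence interval 0.04 to 0.37) had an adjusted p of 0.241. In the other 3 pairwise comparisons it was between 0.00 and 0.14, with adjusted p from 0.304 to 0.99. The corrected values were 0.25 and, without IFN-γ, -0.07 for siR_Nostrill, and -0.06 and 0.26 for IFN-γ in siR_Ctrl and siR_Nostrill cells, so the sign without IFN-γ and that in siR_Ctrl cells turned, and none passed. A processed pseudogene, Trp53-ps, lies on chromosome 17, and reads that fit both could have been shared between them.

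Mdm2 (gene ID 17246, chr10:117688875-117710758, minus strand) varied little. Its level lay between 15.3 and 20.39 FPKM over all 12 libraries, and the ranges of the 4 groups overlapped. The log2 fold changes were between -0.07 and 0.01, and the 95% confidence interval for siR_Nostrill with IFN-γ was -0.26 to 0.11. Corrected for length they were between -0.09 and 0.04, with none called.

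Cdkn1a (gene ID 12575, chr17:29090979-29100722, plus strand) encodes p21, the cyclin-dependent kinase inhibitor through which p53 stops cells before DNA replication. Its level was 62.12, 60.17 and 69.14 FPKM in siR_Ctrl and 94.87, 123.21 and 134.10 in siR_Ctrl + IFN-γ cells, and 69.16, 75.63 and 71.05 in siR_Nostrill and 80.24, 101.28 and 112.12 in siR_Nostrill + IFN-γ cells. In both kinds of cell every library with IFN-γ was above every library without it. Cdkn1a rose with IFN-γ in siR_Ctrl cells, by 0.95 on the log2 scale (standard error 0.16, 1.93-fold, adjusted p = 0.00269), and in each of the 12 fits that left out a library (0.86 to 1.09). In siR_Nostrill cells the value was 0.42 (0.16, adjusted p = 0.141), and 0.53 with the length trend removed (0.13, adjusted p = 0.0108), a call that was lost without siR_Nostrill + IFN-γ replicate 3 (adjusted p = 0.0518).

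For the siRNA, Cdkn1a did not pass in either setting. The log2 fold change of siR_Nostrill was 0.20 (standard error 0.16, 95% confidence interval -0.14 to 0.55, adjusted p = 0.469) without and -0.32 (0.15, 95% confidence interval -0.66 to 0.02, adjusted p = 0.373) with IFN-γ, or 0.08 and -0.28 corrected for length. The interaction was -0.53 (0.22, unadjusted p = 0.0349, adjusted p = 0.43), or -0.37 corrected for length (adjusted p = 0.279), so a smaller IFN-γ effect in siR_Nostrill cells was not established by the test of the difference. Across all genes no interaction passed (0 of 11900) in edgeR or in DESeq2, although 10.7% had an unadjusted p below 0.05, and 3 of the 8 other members were among those.

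For IFN-γ itself, the rule of choice named no comparison, and all 9 genes tested are counted. The libraries are those by which Ei24 was chosen, so its part in these counts is a description and not a test. In siR_Ctrl cells 1 of 9 tested passed, Cdkn1a, where 5.45% of all genes did (4.71% higher, 0.748% lower), and 2 of 9 had an unadjusted p below 0.05 against 14.6% of all genes. With the length trend removed it was again 1 of 9, where 11.3% of all genes were called (8.2% higher, 3.06% lower). The median of the 9 from the counts as deposited was 0.00 on the log2 scale against -0.01 over all genes. In siR_Nostrill cells 1 of 9 passed, Phlda3, where 6.78% of all genes did (5.24% higher, 1.55% lower), and 5 of 9 had an unadjusted p below 0.05 against 21.9%. After removal of the trend 4 of 9 passed (Cdkn1a, Ccng1 and Ei24 higher, Phlda3 lower), where 19.3% of all genes did (11.3% higher, 7.96% lower). On log2 CPM the groups did not overlap for 3 of 9 in siR_Ctrl cells, 1 higher and 2 lower (17.8% of all genes, 9.57% higher and 8.18% lower), and for 4 of 9 in siR_Nostrill cells, 3 higher and 1 lower (35.4% of all genes, 18.5% higher and 16.9% lower). In siR_Nostrill cells Ei24 is among the 5 by unadjusted p and the 4 with the trend removed. It is also among those without overlap in both kinds of cell.

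Phlda3 (gene ID 27280, chr1:135766085-135769134, plus strand) encodes a small pleckstrin-homology protein that competes with Akt for membrane lipids. It was at 71.96, 92.34 and 89.95 FPKM in siR_Ctrl, 76.62, 87.73 and 69.75 in siR_Ctrl + IFN-γ, 93.55, 102.67 and 90.44 in siR_Nostrill and 60.36, 63.60 and 65.40 in siR_Nostrill + IFN-γ cells. The libraries with both treatments were the lowest of the 12. Phlda3 fell with IFN-γ in siR_Nostrill cells by 0.62 on the log2 scale (standard error 0.15, adjusted p = 0.0309), a direction opposite to that of Ei24. The call was lost without siR_Nostrill replicate 1 or 2 or without any library of siR_Nostrill + IFN-γ (adjusted p up to 0.132), and held in all 12 such fits with the length trend removed (-0.48 to -0.42, adjusted p up to 0.000373).

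Against siR_Ctrl + IFN-γ, the log2 fold change of Phlda3 in siR_Nostrill + IFN-γ cells was -0.37 (standard error 0.15, adjusted p = 0.29). The corrected value was -0.27 (0.05, adjusted p = 0.0061), called in each of the 12 fits without a library (adjusted p up to 0.0277). Without IFN-γ the siRNA gave 0.20 (0.15, adjusted p = 0.464), or 0.02 with the trend removed. IFN-γ in siR_Ctrl cells gave -0.05 (0.15, adjusted p = 0.905), or -0.15 corrected (adjusted p = 0.087), and the interaction of -0.57 (unadjusted p = 0.0212, adjusted p = 0.43), or -0.29 corrected (adjusted p = 0.135), did not pass. Phlda3 is short, with an effective length of 1231 nt.

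Bax (gene ID 12028, chr7:45461695-45466903, minus strand), the pore-forming member of the BCL2 family, was the most abundant and among the most scattered. It was at 108.10, 178.20 and 173.37 FPKM in siR_Ctrl, 157.29, 210.37 and 133.07 in siR_Ctrl + IFN-γ, 186.76, 200.47 and 147.72 in siR_Nostrill and 128.60, 131.10 and 150.96 in siR_Nostrill + IFN-γ cells. All 4 groups overlapped. Its log2 fold changes, 0.25 without and -0.35 with IFN-γ for siR_Nostrill (standard error 0.26 each), and 0.19 and -0.41 for IFN-γ in siR_Ctrl and siR_Nostrill cells, did not pass, with adjusted p from 0.354 to 0.782. With the length trend removed the standard error was 0.07, and the same values were -0.05, -0.19, 0.01 and -0.13, again with none called. The gene overlaps Gm45808, annotated on the same strand, and reads in the shared part cannot be assigned to one of them from these tables.

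Bbc3 (gene ID 170770, chr7:16308398-16318334, plus strand) encodes PUMA, a BH3-only activator of apoptosis. It had 83 to 152 reads in a library. Its level was 3.25, 4.27 and 4.23 FPKM in siR_Ctrl, 3.23, 4.69 and 3.84 in siR_Ctrl + IFN-γ, 5.71, 5.51 and 4.13 in siR_Nostrill and 3.49, 3.0 and 4.25 in siR_Nostrill + IFN-γ cells, with every pair of groups overlapping. Its log2 fold change with siR_Nostrill was 0.39 without IFN-γ (standard error 0.21, 95% confidence interval -0.07 to 0.85, adjusted p = 0.389) and -0.22 with it (0.21, adjusted p = 0.69), and corrected for length 0.24 and -0.16. For IFN-γ it was 0.06 in siR_Ctrl cells and -0.55 in siR_Nostrill cells (0.21, unadjusted p = 0.0246, adjusted p = 0.162), or -0.02 and -0.41 corrected. None of these passed. Zmat3 (gene ID 22401, chr3:32334792-32365665, minus strand), a zinc-finger protein that binds AU-rich RNA, lay between 2.63 and 4.4 FPKM over all libraries, and its log2 fold changes between -0.18 and 0.07 had adjusted p from 0.449 to 0.862. Corrected for length the sign turned in 3 of the 4 pairwise comparisons, from -0.18 to 0.15 and from 0.07 to -0.02 for siR_Nostrill without and with IFN-γ and from 0.07 to -0.20 for IFN-γ in siR_Nostrill cells, and stayed below 0 in siR_Ctrl cells (-0.18 and -0.03), with none called in either fit.

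The members' levels were also compared with that TPM to FPKM ratio across the libraries. Bax has the shortest effective length (632 nt) and Zmat3 the longest (7559 nt). The level of Bax in log2 CPM was lower where that ratio was higher (Pearson's r = -0.97, Spearman's rho = -0.96, permutation p = 1e-05 and 2e-05, the former the smallest that 100000 permutations can give, adjusted over 9 members 9e-05 and 0.00018, n = 12 libraries), and r was -0.96 without the 2 libraries farthest from the median. That of Zmat3 was higher (r = 0.88, rho = 0.89, permutation p = 0.00022 and 0.00032, adjusted 0.00099 and 0.0014), with r = 0.74 without those libraries. Phlda3 (r = -0.77, rho = -0.78, permutation p = 0.0022 and 0.0039, adjusted 0.0065 and 0.012) and Bbc3 (r = -0.76, rho = -0.76, permutation p = 0.0038 and 0.0055, adjusted 0.0086 and 0.012) were lower, with r = -0.85 and -0.74 without those libraries. Mdm2 (r = 0.63, permutation p = 0.029, adjusted 0.052), Cdkn1a (r = -0.21, adjusted permutation p = 0.68) and Trp53 (r = 0.12, adjusted permutation p = 0.71) did not pass, and without those libraries r was 0.32, 0.52 and 0.36, so that of Cdkn1a turned. Ei24 (1955 nt) had r = -0.12 and rho = 0.00, and Ccng1 (3251 nt) r = 0.29 and rho = 0.17 (permutation p = 0.36 and 0.61, adjusted 0.54 and 0.68). Those permutations do not keep to the groups, so the values were also centred on their group means and the ratio was permuted within groups (exact permutation test, two-sided, 1296 arrangements, added after the values above were seen). The correlation within groups was -0.99 for Bax, -0.98 for Phlda3 and 0.89 for Zmat3, each with an exact permutation p of 0.00077, the smallest these arrangements can give, and 0.0023 adjusted over 9 members. Within groups the others did not pass after adjustment, with r of -0.73 for Bbc3 (exact p = 0.032, adjusted 0.073), 0.74 for Mdm2 (0.05, adjusted 0.09), 0.73 for Ccng1 (0.093, adjusted 0.14), -0.46 for Ei24 (0.17, adjusted 0.22), -0.38 for Cdkn1a (0.27, adjusted 0.3) and 0.10 for Trp53 (0.72).

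**Figure D3:**
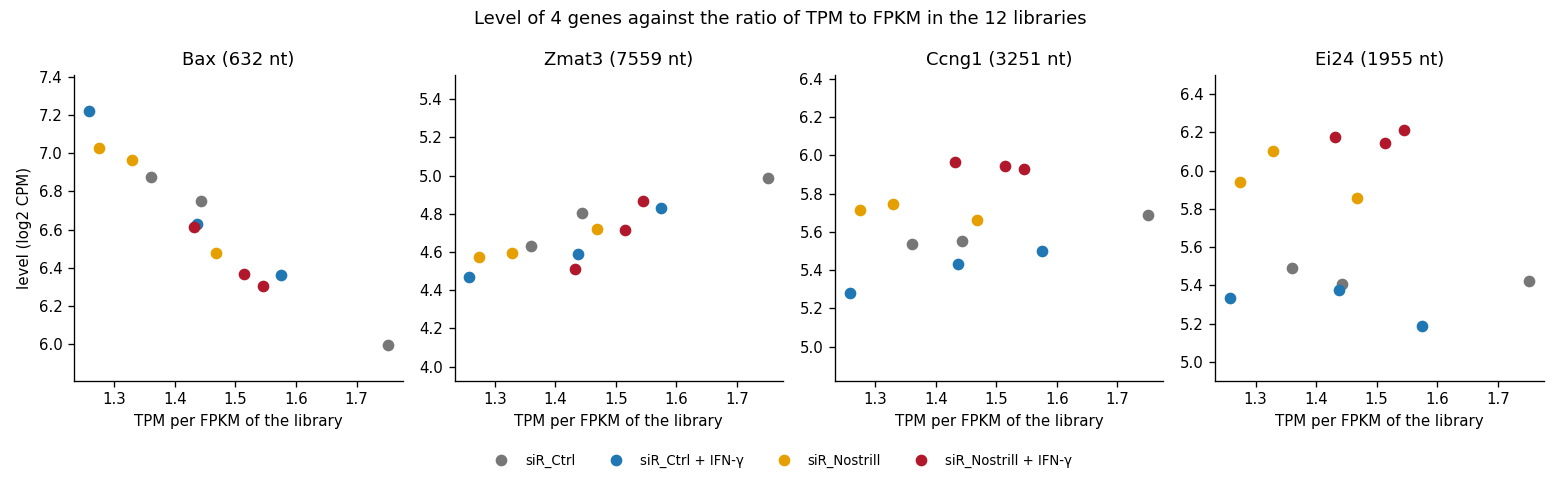
Level in log2 CPM (y axis, the same span of 1.6 units in each panel) of the shortest and the longest member, Bax and Zmat3, and of Ccng1 and Ei24, against the ratio of TPM to FPKM of the library (x axis), 1 point per library, coloured by group. Bax falls and Zmat3 rises along the ratio (r = -0.97 and 0.88), and Ccng1 and Ei24 have r of 0.29 and -0.12.

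Over all genes, the log2 fold change correlated with effective length, with Spearman's rho of -0.66 for siR_Nostrill without IFN-γ, 0.27 with IFN-γ, -0.43 for IFN-γ in siR_Ctrl and 0.48 in siR_Nostrill cells (across 11788 genes, which are not independent replicates). In the first of these, the median was 0.31 in the shortest and -0.36 in the longest of 10 bins of genes by length, and Bax (0.25) and Zmat3 (-0.18) lay on the same sides of 0 as those medians and inside the 10th to 90th percentile of their bins. Ccng1 (0.54) lay above the 90th percentile of its bin (0.30) for siR_Nostrill with IFN-γ.

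**Figure D4:**
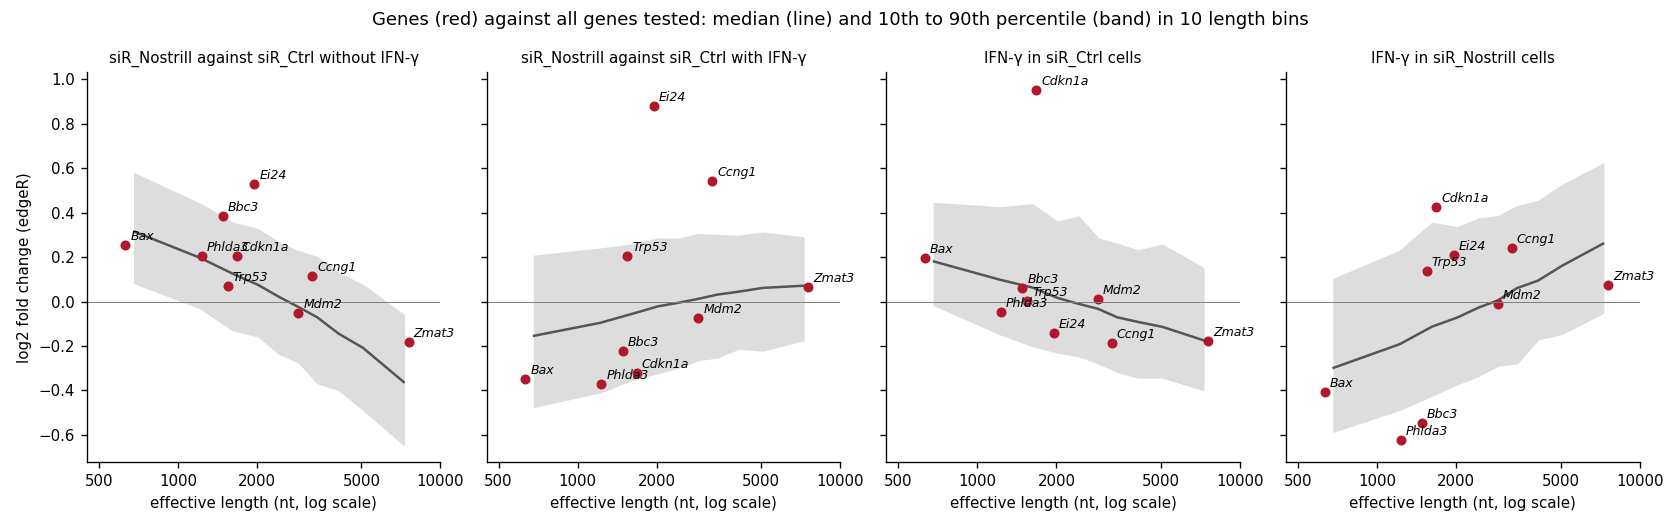
Log2 fold change (y axis) against effective length in nt (x axis, log scale) for the 9 genes tested (red), beside the median (line) and the 10th to 90th percentile (band) of all genes in 10 bins of 1178 or 1179 genes, in 4 comparisons. The band is drawn between the median lengths of the outer bins, so Bax and Zmat3 stand just beyond its ends, without IFN-γ at heights within it, and Ei24 in the siRNA panels is shown as the value that chose the set.

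Beyond the members, 41 further genes known to be activated by p53 were read, of which 40 were tested. With siR_Nostrill none of them passed, where 0.218% and 0.429% of all genes did, either without IFN-γ (median -0.02 against 0.00 over all genes, with 20 above and 20 below 0) or with it (median -0.02 against 0.00, with 19 above and 21 below 0). By unadjusted p, 6 and 4 of the 40 were below 0.05, against 13.8% and 14.5% of all genes. Those with the lowest p were Plk2, a polo-like kinase, without IFN-γ (-0.32, standard error 0.08, adjusted p = 0.15) and Ercc5, a nuclease of nucleotide excision repair, with IFN-γ (-0.29, 0.08, adjusted p = 0.11). With the length trend removed, 1 was called without IFN-γ (Plk2, -0.33) and 3 with it (Eda2r 0.56, Cd82 0.23 and Ercc5 -0.34), where 3.52% and 13.1% of all genes were called in that fit.

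With IFN-γ, 5 of the 40 were called in siR_Ctrl cells, 2 higher and 3 lower, and 6 in siR_Nostrill cells, 3 higher and 3 lower, where over all genes 4.71% were higher and 0.748% lower, and 5.24% higher and 1.55% lower. After the correction for length the counts were 6 higher and 3 lower, and 4 higher and 5 lower, beside 8.2% and 3.06%, and 11.3% and 7.96%, of all genes. Fas, the death receptor, rose from 3.42 ± 0.02 to 22.7 ± 2.78 FPKM in siR_Ctrl cells (SD, n = 3 each; log2 fold change 2.83, adjusted p = 6.47e-07 from edgeR) and from 4.36 ± 0.727 to 23.6 ± 3.87 FPKM in siR_Nostrill cells (2.44, adjusted p = 2.04e-06 from edgeR). Pml, the scaffold of nuclear bodies, rose by 0.61 and 0.84 on the log2 scale. Both are known to be induced by interferons as well as by p53. Eda2r, a receptor of the TNF receptor family, rose by 1.85 in siR_Nostrill cells from a low level (0.73 ± 0.225 to 2.82 ± 0.621 FPKM, n = 3), and was 0.85 in siR_Ctrl cells (adjusted p = 0.158 from edgeR), where it passed with the length trend removed (0.96).

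The members of this list that fell were others. Epha2, an ephrin receptor, fell by 0.57 and 0.40 on the log2 scale in siR_Ctrl and siR_Nostrill cells, and Plk2 fell by 0.52 and 0.31. Sesn1, a sestrin that limits mTORC1, fell by 0.42 in siR_Ctrl cells and was at -0.26 in siR_Nostrill cells (adjusted p = 0.161), and Ercc5 fell by 0.35 in siR_Nostrill cells and was at -0.17 in siR_Ctrl cells (adjusted p = 0.338). The median over the 40 was -0.04 in siR_Ctrl and -0.07 in siR_Nostrill cells, or -0.01 and -0.04 with the length trend removed, against -0.01 and 0.00 over all genes, with 19 and 17 of the 40 above 0.

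Among 23 regulators and cofactors of p53, 21 were tested. None passed with siR_Nostrill in either setting, where 0.218% and 0.429% of all genes did without and with IFN-γ. The median without IFN-γ was -0.24 and became -0.02 with the length trend removed, and the lowest p was that of Dyrk2, a kinase that phosphorylates p53 (-0.45, standard error 0.15, adjusted p = 0.286). With IFN-γ it was that of Rpl5, a ribosomal protein that binds Mdm2 (-0.47, 0.23, adjusted p = 0.375), whose reads may be shared with its pseudogenes. After removal of the length trend, Hipk2, a kinase of p53, was called higher (0.29) and Rpl5 lower (-0.34) with IFN-γ, 2 of 21 where 13.1% of all genes were called, and none without IFN-γ, where 3.52% were. Rchy1, known as Pirh2, an E3 ligase for p53, rose with IFN-γ in both kinds of cell, from 20.4 ± 1.04 to 31.9 ± 1.76 FPKM in siR_Ctrl (0.71, adjusted p = 0.00158 from edgeR, n = 3 each) and from 21.2 ± 1.56 to 33.2 ± 0.887 FPKM in siR_Nostrill cells (0.62, adjusted p = 0.00422 from edgeR), as 1 of 21 in each, where 5.45% and 6.78% of all genes were called. After the correction for length 4 of 21 were called higher in siR_Ctrl cells (8.2% of all genes), among them Atm, the kinase of the DNA damage response (0.52), Cdkn2a, which encodes the Mdm2 inhibitor ARF (0.30), and Hipk2 (0.29). In siR_Nostrill cells 4 were called higher (11.3% of all genes), with Atm at 0.58, Hipk2 at 0.43 and Ep300, an acetyltransferase, at 0.43 beside Rchy1, and 2 lower (7.96%), Rpl5 (-0.26) and Trp53bp1 (-0.22).

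In the BCL2 family outside the members, 11 of 12 genes were tested and none passed with siR_Nostrill, beside the same 0.218% and 0.429% of all genes. Bak1, the close relative of Bax in pore formation, was at 137 ± 9.86 against 101 ± 2.39 FPKM with IFN-γ (SD, n = 3 each; 0.38, adjusted p = 0.11 from edgeR), and Bcl2l2, an antiapoptotic member, at 17.6 ± 4.05 against 11.5 ± 0.696 FPKM without it (0.42, adjusted p = 0.146 from edgeR). Both passed with the length trend removed, Bak1 at 0.33 and 0.42 and Bcl2l2 at 0.47 and 0.30 without and with IFN-γ, which is 2 of 11 in each where 3.52% and 13.1% of all genes were called. IFN-γ raised Bak1 by 0.76 and 0.71 and Bid, a BH3-only protein cleaved by caspase-8, by 0.59 and 0.69 in siR_Ctrl and siR_Nostrill cells. In all, 2 of 11 were called in siR_Ctrl cells and 4 of 11 in siR_Nostrill cells, where 5.45% and 6.78% of all genes were. Bcl2l11, which encodes BIM, rose by 0.73 in siR_Nostrill cells and was at 0.39 in siR_Ctrl cells (adjusted p = 0.326), where it passed with the length trend removed (0.49). Bmf, a BH3-only protein, fell by 0.63 in siR_Nostrill cells and was at -0.10 in siR_Ctrl cells (adjusted p = 0.806). With the length trend removed, IFN-γ gave 3 of 11 higher and 0 lower in siR_Ctrl cells, where 8.2% and 3.06% of all genes were. In siR_Nostrill cells it gave 3 higher and 2 lower (11.3% and 7.96% of all genes), the latter Bmf (-0.74) and Bcl2 (-0.45). No interaction of these genes passed.

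Among 14 genes of the G1 phase, 13 were tested, again with none passing in the siRNA comparisons (0.218% and 0.429% of all genes). For IFN-γ, 1 of 13 was called in siR_Ctrl and 3 of 13 in siR_Nostrill cells, where 5.45% and 6.78% of all genes were. The lowest p were those of Ccne2, a cyclin E, without IFN-γ (-0.45, standard error 0.11, adjusted p = 0.162) and of Cdkn2c, a CDK4 and CDK6 inhibitor, with it (-0.32, 0.09, adjusted p = 0.121). In the corrected fit Ccne2 (-0.46) and Cdkn2b (0.31) were called without IFN-γ and none with it, where 3.52% and 13.1% of all genes were. Cdk6 rose with IFN-γ from 8.17 ± 1.88 to 18 ± 2.4 FPKM in siR_Ctrl and from 7.14 ± 0.659 to 19.9 ± 2.18 FPKM in siR_Nostrill cells (SD, n = 3 each; 1.21 and 1.45, adjusted p = 0.000102 and 2.2e-05 from edgeR). Ccnd2, a cyclin D, rose by 0.68 in siR_Nostrill cells and was at 0.44 in siR_Ctrl cells (adjusted p = 0.0937), and passed in both with the length trend removed (0.47 and 0.56). In that fit IFN-γ gave 2 of 13 higher and 0 lower in siR_Ctrl cells, where 8.2% and 3.06% of all genes were. In siR_Nostrill cells it gave 3 higher and 2 lower (11.3% and 7.96% of all genes), among them Ccnd3 (0.25) higher and Ccnd1 (-0.25) lower. Cdkn2b, an inhibitor of CDK4 and CDK6, fell by 0.63 in siR_Nostrill cells and was at 0.14 in siR_Ctrl cells (adjusted p = 0.744), with an interaction that did not pass (-0.76, adjusted p = 0.43).

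The 16 genes that are lowered through p21 and the DREAM complex, most of them mitotic, were all tested and none passed in any comparison from the counts as deposited, where 0.218% and 0.429% of all genes did for the siRNA and 5.45% and 6.78% for IFN-γ. Corrected for length, IFN-γ gave Top2a higher in siR_Ctrl cells (0.24) and Cdc20 (-0.28) and Bub1b (-0.19) lower in siR_Nostrill cells, where 8.2% of all genes were higher in the former and 7.96% lower in the latter cells. With siR_Nostrill and IFN-γ, 12 of the 16 were below 0, with a median of -0.12 against 0.00 over all genes. Cdc20, an activator of the anaphase-promoting complex, was at 89.3 ± 1.84 against 111 ± 9.11 FPKM (n = 3 each, -0.38, adjusted p = 0.19 from edgeR). With the length trend removed 4 of 16 were called lower, Mki67 (-0.58), Cdc20 (-0.31), Top2a (-0.25) and Kif23 (-0.22), where 6.83% of all genes were. Without IFN-γ, Mki67 was at 41.2 ± 5.06 against 66.4 ± 18.2 FPKM (n = 3 each, -0.68, adjusted p = 0.162 from edgeR) and none was called in either fit.

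**Figure D5:**
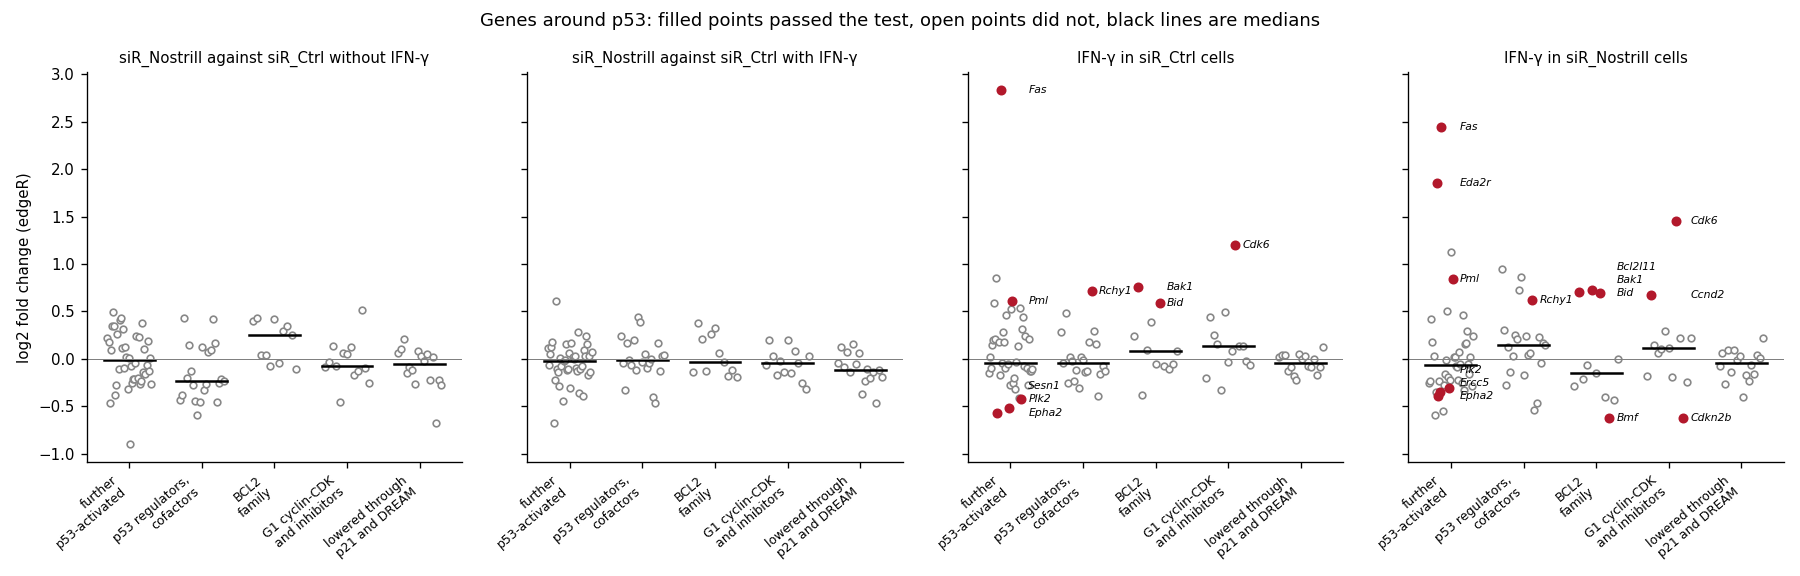
Log2 fold change (y axis) of each tested gene of the 5 further lists (x axis) in 4 comparisons, with the median of each list as a black line. No point is filled, that is past the threshold, in the siRNA panels, and the filled points in the IFN-γ panels are led by Fas (2.83 and 2.44), Eda2r (1.85) and Cdk6 (1.21 and 1.45).

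The genes whose pattern over the 12 libraries was most like that of Ei24 were not p53 targets of these lists. Among 10696 genes with an average log2 CPM above 1, the highest Pearson correlations of log2 CPM were those of Vps9d1 (0.98), Mpzl1 (0.97), Pigs (0.97), Letmd1 (0.97) and Pcgf2 (0.97), given as a description since the libraries share groups. Their changes were smaller than that of Ei24, with log2 fold changes of 0.28, 0.52, 0.39, 0.43 and 0.43 for siR_Nostrill with IFN-γ. Of the members, Ccng1 came closest (r = 0.88, rank 64 among these genes), followed by Trp53 (0.77, rank 228). The other 6 had r between -0.47 (Mdm2) and 0.04 (Bbc3), with Cdkn1a at -0.13 and Phlda3 at -0.23. All these correlations and ranks are a description and not a test, since the pattern of Ei24 includes the rise by which it was chosen.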

How the data were processed

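RNA was sequenced on a DNBSEQ platform from 12 libraries of IEC4.1 cells, and groups were taken from the labels. The authors deposited an estimated count per gene and library, not normalized, with an FPKM (scaled to length and mapped reads) and a TPM. Per the labels and methods, HISAT2 and Bowtie2 aligned the filtered reads to GRCm38.p6. The sources used here give no counting tool, and the methods speak of RPKM although the columns are headed FPKM. Counts, rounded to whole numbers, were tested with edgeR 4.0.16 in R 4.3.3 (quasi-likelihood, TMM, filterByExpr, 1 model for the 12 libraries, Benjamini-Hochberg over 11900 genes, threshold 0.05). Standard errors were derived from the F statistics. Log2 CPM used a prior count of 2. The study's methods name DESeq2, whose Wald test was run here as an alternative (version 1.42.0).

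To remove the length trend, a lowess curve (span 0.3) of each library's log2 CPM deviation on log effective length, defined by the ratio of counts to FPKM, entered edgeR as an offset. Other alternatives were DESeq2's size factors in edgeR, no count filter or a minimum mean of 5 CPM, a fit of the compared groups alone, a replicate block, limma 3.58.1 on log2(FPKM + 1) or log2(FPKM + 0.1) (minimum mean FPKM 0.5, or unfiltered), and each library left out. Leaving out each library with the trend removed was added after seeing the data. The steps were tested on simulated data. Comparisons share control libraries and are not independent of one another.

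Genes named were the members, from each list at most 5 called genes of largest change per comparison (or that of lowest p), and the 5 nearest to Ei24. For the siRNA comparisons, list genes called with the length trend removed were also named, as were some for IFN-γ, after their values were seen. The members and lists were chosen with earlier results of these data known. The study describes biological triplicates, and p-values measure the spread between these libraries. Sequences come from RefSeq (GRCm38.p6) and the study's siRNA list.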

Additional observations from a re-analysis of the deposited data

How the results depend on the processing

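The count of members called for IFN-γ in siR_Ctrl cells was 1 under every alternative, and for siR_Nostrill without IFN-γ and the interaction it was 0. For IFN-γ in siR_Nostrill cells it went from 1 to 4, Ei24 among them, with the length trend removed. For siR_Nostrill with IFN-γ it went from 1 to 2 with the trend removed and to 0 with only the groups compared, where the cause was not tested. Over the fits that left out a library, these counts were 0 to 1 and 0 to 1, and with the trend also removed, a step added after seeing the data, 2 to 5 and 2 to 3. Same-numbered libraries did not deviate from their group means alike throughout (correlations of deviations from -0.495 to 0.725). These deviations were taken before the correction for length, so they cannot show whether the replicates were paired. With the replicate block 1, 1, 0, 1 and 0 members were called, as without it. No value of a called member reversed. Of all 441 values of the 9 members, called ones and Ei24 included, 22 changed sign under the other alternatives, none of them called, 8 of them with the length trend removed, with a largest size after the change of 0.204. Leaving out a library changed the sign of 21 of 540 (up to 0.118), and doing so with the trend removed that of 98 of 540 (up to 0.268). The interaction of Ei24, 0.35, was 0.46 with the trend removed and 0.44, 0.45 and 0.44 in the 3 limma fits. With the trend removed and a library left out, Ei24 was 0.39 to 0.49 without and 0.87 to 0.96 with IFN-γ. Over all genes, the calls for siR_Nostrill without IFN-γ were 26 in edgeR, 265 in DESeq2, 415 with the trend removed and 0 with only the groups compared, and for siR_Nostrill with IFN-γ 51, 596, 1542 and 0. Those for IFN-γ were 649 and 807 in edgeR, 838 and 1330 in DESeq2, 1328 and 2274 with the trend removed and 341 and 1997 with only the groups compared. In the fits that left out a library, the calls for siR_Nostrill ran from 0 to 37 without and 0 to 72 with IFN-γ. The shares of 0.218% and 0.429% of all genes given above therefore depend on single libraries. For IFN-γ the calls ran from 489 to 589 in siR_Ctrl and from 491 to 1138 in siR_Nostrill cells. At 83 to 152 reads a library, Bbc3 is the member that depth limits most after Perp.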
